A study of Homo sapiens with 6 samples.

Results

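The regions described here are the places where PRMT5 and METTL3 both gave a peak in the same prostate cancer cell line. A PRMT5 peak on chromosomes 1 to 22, X or Y was taken when it shared at least 1 bp with a METTL3 peak of that line. The rule took 73 of 980 PRMT5 peaks in LNCaP, which is 7.45%, and 151 of 1661 in PC3, which is 9.09%, 224 regions in all. The regions were thus chosen by the peak calls of both antibodies, and those percentages, like the folds and q values of the same peaks below, are a description. The overlapping METTL3 peaks numbered 73 of 173 in LNCaP (42.2%) and 148 of 7453 in PC3 (1.99%). PC3 had fewer METTL3 peaks than regions because 3 METTL3 peaks, in DTX2P1, DYSF and MUC4, each met 2 PRMT5 peaks.

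LNCaP is an androgen-responsive line from a lymph node metastasis of prostate cancer, and PC3 is an androgen-independent line from a bone metastasis. Untreated cells of each line, grown in RPMI-1640 medium with serum, were profiled in 3 libraries, for METTL3, PRMT5 and a control, or 6 libraries in all, from 100000 cells and with 16 PCR cycles each. The control is titled IgG, but its antibody field names only the secondary antibody, and it served both peak lists of its line. In this assay the bound antibody recruits the Tn5 transposase through protein G, and the enzyme inserts sequencing adapters into DNA close by. With 1 library per group there was no spread between replicates to set a difference against. Shares are given with exact (Clopper-Pearson) 95% intervals, which cover counting error only, and peaks of 1 library are not replicates. Fold and q are the authors' caller's values for each peak against the control of its line. The read depth is unknown.

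PRMT5 is the main enzyme that places symmetric dimethyl marks on arginine, on histones H3 and H4, where the mark is linked mostly to repression, and on Sm proteins and other splicing factors. It works together with the adaptor WDR77 in the methylosome. METTL3 is the catalytic subunit of the METTL3-METTL14 complex, which writes N6-methyladenosine (m6A) on nascent RNA and is brought to chromatin during transcription. Both are known to be active in prostate cancer cells, and a peak of either in this assay shows where tagging was enriched, not that the enzyme acted there.

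Of all regions, 3 touched a RefSeq promoter window, the 250 bases before to 50 after a listed start site in GRCh38.p14, all of them in LNCaP. They are printed 5′ to 3′ in the direction of the gene because they show the sequence where the regions came closest to a listed start site; no PRMT5 peak among them covered the start site itself. Capitals mark the bases inside the PRMT5 peak.
CARS2 (chr13:110706466-110706765, minus strand): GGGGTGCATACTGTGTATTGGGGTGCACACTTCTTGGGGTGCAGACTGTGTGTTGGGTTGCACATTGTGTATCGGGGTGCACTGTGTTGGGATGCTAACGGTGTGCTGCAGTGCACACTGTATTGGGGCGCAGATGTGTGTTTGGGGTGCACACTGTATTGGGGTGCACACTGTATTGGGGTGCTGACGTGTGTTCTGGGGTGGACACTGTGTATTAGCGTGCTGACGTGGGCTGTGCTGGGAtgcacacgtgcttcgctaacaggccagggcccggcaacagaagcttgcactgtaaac
LOC105375303 (chr7:1619345-1619644, plus strand): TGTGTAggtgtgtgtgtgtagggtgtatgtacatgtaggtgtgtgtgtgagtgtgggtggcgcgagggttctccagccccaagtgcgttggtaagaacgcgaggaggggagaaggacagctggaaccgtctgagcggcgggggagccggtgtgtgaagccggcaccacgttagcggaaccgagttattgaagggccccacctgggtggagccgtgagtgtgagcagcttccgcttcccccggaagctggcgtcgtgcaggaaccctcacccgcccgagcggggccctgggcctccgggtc
LOC101928626 (chr1:628960-629259, minus strand): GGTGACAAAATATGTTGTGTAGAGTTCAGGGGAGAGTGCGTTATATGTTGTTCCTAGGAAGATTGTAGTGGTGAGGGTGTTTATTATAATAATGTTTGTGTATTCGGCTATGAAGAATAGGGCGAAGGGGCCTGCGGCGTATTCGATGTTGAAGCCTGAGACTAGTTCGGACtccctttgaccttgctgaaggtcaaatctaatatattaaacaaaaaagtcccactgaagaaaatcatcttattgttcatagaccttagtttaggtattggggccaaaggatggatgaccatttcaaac

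CARS2 encodes the mitochondrial cysteinyl-tRNA synthetase, and it was the only coding gene of the 3. All 243 capital bases of its window lay in both peaks, and the PRMT5 peak stopped 8 bp short of the listed start site, which lies inside the gene's annotated span and inside the METTL3 peak. The capitals are a degenerate tandem repeat: the letters GGGGTGCA occurred 6 times in the printed strand, and no other window among 35116 had as many on either strand. This string was picked after the sequence was seen. In the lncRNA gene LOC105375303 only 6 bases of the window lay in the PRMT5 peak and none in both. The peak stopped beside a run of GT repeats. GTGTGT occurred 8 times over the whole window counting overlaps, and 0.273% of windows had at least as many on either strand. LOC101928626, also a lncRNA gene, starts beside nuclear copies of mitochondrial genes, with 172 bases of its window in the PRMT5 peak and 77 in both.

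The windows were searched on both strands for GGGCGG (the core of an SP1 site), CCAAT (NF-Y), CACGTG (an E-box) and TGANTCA (AP-1). CCAAT occurred 4 times in the CARS2 window, each time as ATTGG on the printed strand, and 2 of these ran straight into a GGGGTGCA copy. CACGTG occurred 1 time there. LOC105375303 held GGGCGG 1 time and LOC101928626 held CCAAT 1 time. Among all windows, 45.0% held GGGCGG, 34.6% CCAAT, 7.26% CACGTG and 7.71% TGANTCA. As many as 4 copies of ATTGG on either strand were found in 0.447% of windows. A match describes letters, not binding.

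Regions with both peaks were near the start of a coding gene less often than PRMT5 peaks generally. In LNCaP 5 of 73 (6.85%, interval 2.26 to 15.3) had their PRMT5 summit within 3 kb of a coding start, against 32.3% of all PRMT5 peaks of the line and 34.4% (31.3 to 37.6) of those without METTL3. In PC3 it was 6 of 151 (3.97%, 1.47 to 8.45), against 24.4% of all PRMT5 peaks and 26.5% (24.3 to 28.8) of those without METTL3. METTL3 peaks without PRMT5 were as rarely placed there, 9% (4.20 to 16.4) in LNCaP and 4.34% (3.88 to 4.83) in PC3. The interval of the shared regions overlapped that of METTL3 without PRMT5 and did not reach that of PRMT5 without METTL3 in either line. With genes of all types counted, the LNCaP share rose to 37.0% (26.0 to 49.1), against 50.2% (46.9 to 53.5) of PRMT5 peaks without METTL3, and the PC3 share to 11.3% (6.70 to 17.4), against 38.4% (35.9 to 40.9).

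Read from the PRMT5 side, 5 of 317 PRMT5 peaks near a coding start met METTL3 in LNCaP (1.58%, interval 0.514 to 3.64), against 68 of 663 elsewhere (10.3%, 8.05 to 12.8). In PC3 the counts were 6 of 406 (1.48%, 0.544 to 3.19) near a start and 145 of 1255 elsewhere (11.6%, 9.84 to 13.5). In LNCaP 3 of 73 regions touched a promoter window (4.11%), against 19.7% of all PRMT5 peaks. In PC3 0 of 151 did, which allows a share of up to 1.99% by 3 counts of the total and 2.41% by the exact interval, against 8.79% of all PRMT5 peaks. The window table lists no gene of chromosome 8, and a coding gene without a window was given both of its ends as possible starts.

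**Figure D1:**
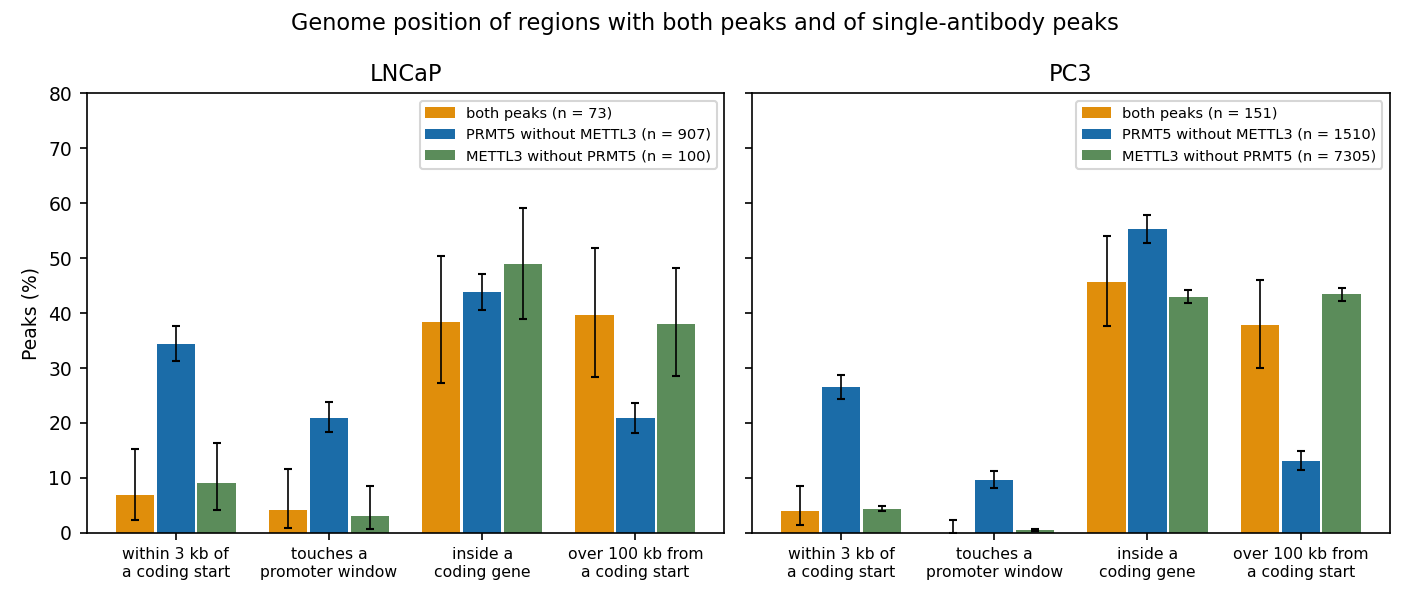
Share of peaks (%, vertical axis) at 4 kinds of position for regions with both peaks, PRMT5 peaks without METTL3 and METTL3 peaks without PRMT5, in LNCaP (left) and PC3 (right). Bars are shares and whiskers exact 95% intervals. In PC3 3.97% of the shared regions lay within 3 kb of a coding start, against 26.5% of PRMT5 peaks without METTL3.

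The regions were farther from coding starts than PRMT5 peaks without METTL3, and no more often inside coding genes. In LNCaP 28 of 73 summits (38.4%, interval 27.2 to 50.5) fell inside a coding gene, against 43.5% of all PRMT5 peaks. In PC3 69 of 151 (45.7%, 37.6 to 54.0) did, against 54.4%. In LNCaP the order of the shares turned at a fold of at least 5 in both lists (50.0% against 45.4% of PRMT5 peaks without METTL3) and with genes of all types (57.5% against 56.8%). The median distance to a coding start was 47.3 kb in LNCaP and 49.5 kb in PC3, against 13.0 and 11.5 kb for PRMT5 peaks without METTL3 and 59.5 and 76.7 kb for METTL3 peaks without PRMT5. More than 100 kb from any coding start lay 39.7% (28.5 to 51.9) of the LNCaP regions and 37.7% (30.0 to 46.0) of the PC3 regions, against 20.8% (18.2 to 23.6) and 13.0% (11.4 to 14.8) of PRMT5 peaks without METTL3.

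The 28 LNCaP summits inside genes fell in 24 coding genes and the 69 PC3 summits in 60. Their median lengths were 86.9 and 100.5 kb, against 24.1 kb over all coding genes. Host genes were longer still for METTL3 without PRMT5 (247.6 and 128.2 kb) and shorter for PRMT5 without METTL3 (61.9 and 48.6 kb). A longer gene offers more bases for a peak to fall in. Only PTPRN2, SELP and SERINC2 hosted a region in both lines.

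PTPRN2, a receptor-type protein tyrosine phosphatase family member of secretory granules, spans 1049 kb at the end of chromosome 7 (chr7:157539056-158587823) and held more regions than any other host in PC3. Of its 6 PC3 PRMT5 peaks 5 were shared with METTL3, which had 13 peaks in the gene. The 5 PC3 regions had PRMT5 folds of 9.05, 7.17, 5.41, 5.29 and 3.18, with METTL3 folds of 7.33, 9.09, 5.06, 4.13 and 3.34 in the same order. In LNCaP PTPRN2 held 2 regions within 0.882 kb, both with a PRMT5 fold of 5.57 and with METTL3 folds of 6.47 and 6.73. None of the PTPRN2 regions was the same in both lines: the LNCaP pair ended at position 158131491 and the nearest PC3 region began at 158132497. The strongest PC3 region there, chr7:158360046-158360293, did overlap a LNCaP PRMT5 peak of fold 3.84.

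Other coding genes held 2 regions each in PC3. ADK, which encodes adenosine kinase, had PRMT5 folds of 5.24 and 6.14 and METTL3 folds of 5.24 and 5.56, in a gene with 11 METTL3 peaks. DPP6, an auxiliary subunit of neuronal potassium channels, had PRMT5 folds of 3.42 and 5.93 and METTL3 folds of 5.97 and 5.13. GALNT9, a mucin-type glycosyltransferase, had PRMT5 folds of 6.29 and 8.31 and METTL3 folds of 5.37 and 3.88. In DYSF, which encodes the muscle membrane-repair protein dysferlin, and in MUC4, a membrane mucin, both PRMT5 peaks met the same METTL3 peak, of fold 2.54 and 3.33. Those pairs are therefore not 2 separate METTL3 observations.

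The regions with the largest smaller fold of the pair came first in each line by the naming rule. In LNCaP the first was chr3:10873466-10874004 in SLC6A11, a GABA transporter gene, with a PRMT5 fold of 9.84 and a METTL3 fold of 13.8, the highest METTL3 fold among the 73 regions. SELP, the gene of the cell adhesion molecule P-selectin, had 8.65 for PRMT5 and 10.5 for METTL3 at chr1:169621357-169621554. L3MBTL4, of the malignant brain tumour repeat family of chromatin proteins, had 7.85 and 9.28. ZMYND11, a reader of methylated histone H3.3, had 7.85 and 8.77.

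The gene of the neuronal kinase DCLK2 carried the highest PRMT5 fold of the LNCaP regions, 15.0, beside a METTL3 fold of 7.75 and summits 1 bp apart. CARS2 had 7.52 and 9.45, and ADPRHL1, expressed in heart, had 8.50 and 7.06. Other LNCaP regions of this group lay outside coding genes. Nearest to them were the starts of EDEM1, a factor in the disposal of misfolded glycoproteins, B4GALNT4, a glycosyltransferase gene, GRIK2, a glutamate receptor subunit gene, and an end of XKR4. These were 353, 12.7, 1065 and 47.3 kb away.

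In PC3 the first was chr5:85193929-85194163, 809 kb from EDIL3, with a PRMT5 fold of 13.8 and a METTL3 fold of 10.2. Next came chr6:44044442-44045843 in the lncRNA gene SCIRT, 81.7 kb from the mitochondrial ribosomal protein gene MRPL14, with 23.2 and 10.2. That peak was also 1 of those found in the LNCaP PRMT5 list, with a fold of 5.33 there. CREM, a cAMP-responsive transcription factor gene, had 8.60 and 8.46 at chr10:35160123-35160405, and TRPM2, a calcium-permeable cation channel gene, had 7.95 and 9.25. XKR6 had 7.95 and 8.04, and CCDC192 had 8.83 and 7.74.

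The remaining PC3 regions of this group were again mostly distant from coding starts. They lay 625 kb from TRIML1, 8.95 kb from LRRN1, 1374 kb from WSB1, 69.4 kb from CNTNAP5, 228 kb from the antiapoptotic gene BCL2 and, inside GCOM1, 3.16 kb from an end of MYZAP. Their PRMT5 folds were between 7.65 and 12.35, and their METTL3 folds between 7.57 and 10.32. The 12 first regions of LNCaP and the 12 of PC3 shared no nearest gene. EDEM1, SELP and B4GALNT4, high in the LNCaP order, came back further down the PC3 order.

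**Figure D2:**
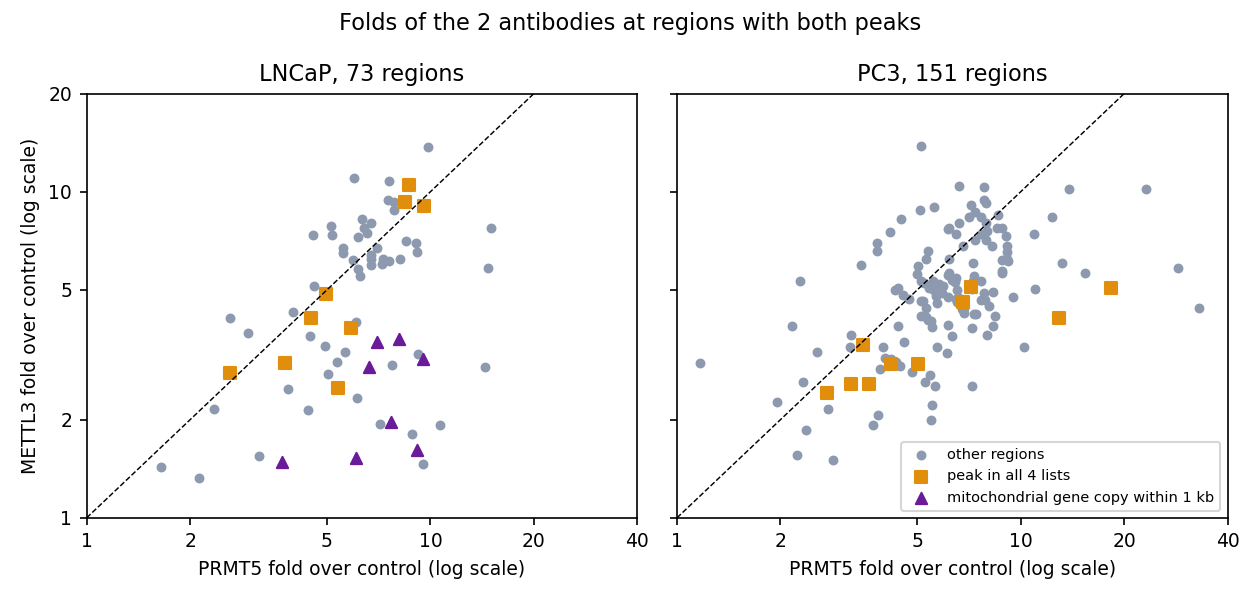
PRMT5 fold (horizontal, log scale) against METTL3 fold (vertical, log scale) for each region with both peaks, in LNCaP (left) and PC3 (right), with the dashed line at equal folds. Squares are regions with a peak in all 4 lists and triangles regions with a mitochondrial gene copy within 1 kb. In LNCaP 49 of 73 regions and in PC3 111 of 151 lie below the dashed line, with PRMT5 the larger fold.

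Across all regions the PRMT5 fold had a median of 6.43 in LNCaP (quartiles 5.02 and 7.85, range 1.65 to 15.0) and 6.18 in PC3 (5.01 and 7.74, 1.17 to 32.9). PRMT5 peaks without METTL3 had medians of 6.56 and 5.89. The median −log10 q of the PRMT5 peaks was 8.21 in LNCaP regions and 6.74 in PC3 regions, against 6.02 and 4.76 without METTL3. The METTL3 fold had a median of 4.84 in LNCaP (quartiles 2.89 and 7.06) and 4.91 in PC3 (3.84 and 6.22). PRMT5 was the larger of the pair in 49 of 73 and 111 of 151 regions. Both folds reached 5 in 34 of 73 regions of LNCaP and 67 of 151 of PC3, and both were under 3 in 4 and 8.

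The lowest and the highest METTL3 peaks of LNCaP were the ones most often shared with PRMT5. By quartile of METTL3 fold, from the lowest, 84.1% (interval 69.9 to 93.4), 23.3%, 18.6% and 41.9% (27.0 to 57.9) met a PRMT5 peak. Of the LNCaP METTL3 peaks with a fold under 3, 22 of 23 did. In PC3 the quartiles gave 2.90%, 1.503%, 1.07% and 2.47%, and 21 of 57 METTL3 peaks with a fold under 3 met PRMT5 (36.8%, 24.5 to 50.7), against 1.99% of all. PRMT5 fold ordered the sharing less: 8.57%, 6.94%, 8.16% and 6.12% by quartile in LNCaP, and 9.13%, 7.23%, 6.75% and 13.3% in PC3. These folds belong to the lists that chose the regions and are a description.

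**Figure D3:**
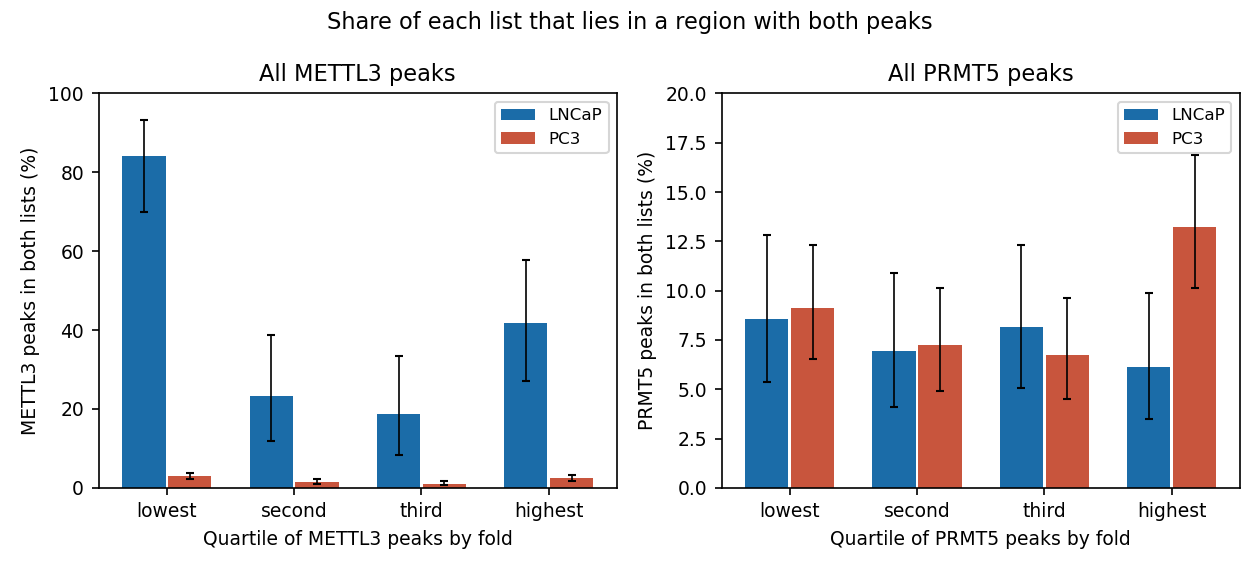
Share of METTL3 peaks (left) and PRMT5 peaks (right) that lie in a region with both peaks (%, vertical axis), by quartile of their own fold from lowest to highest, for LNCaP and PC3. Whiskers are exact 95% intervals, and the vertical scales differ. The lowest METTL3 quartile of LNCaP stands at 84.1%.

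The 33 LNCaP regions with a METTL3 fold under 4 also differed in q values and position from the 36 with a fold of 5 or more. Their median −log10 q was 51.1 for PRMT5 and 14.1 for METTL3, against 5.81 and 5.90 in the second set. A low fold with a very small q is what this kind of caller can give where both the antibody library and the control have many reads. Of the 33, 12 lay within 1 Mb of a chromosome end, 8 had a mitochondrial gene copy within 1 kb and 9 were inside a coding gene. Of the 36, the counts were 5, 0 and 18. In PC3 the 43 regions with a METTL3 fold under 4 had median −log10 q of 7.24 and 4.02, against 6.60 and 6.84 in the 74 with a fold of 5 or more, a much smaller gap. Whether signal shared with the control plays a part in the low-fold regions was not tested.

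Nuclear copies of mitochondrial genes, pieces of mitochondrial DNA inserted long ago into the chromosomes, marked 8 of the 73 LNCaP regions (11.0%, interval 4.85 to 20.5). The corresponding share was 3.06% of all LNCaP PRMT5 peaks and 2.43% (1.53 to 3.65) of those without METTL3. All 8 METTL3 peaks of LNCaP within 1 kb of such a copy met PRMT5, and 0 of the 100 METTL3 peaks without PRMT5 had 1 nearby, which allows up to 3% by 3 counts of the total and 3.62% by the exact interval. In PC3 0 of 151 regions had a copy within 1 kb, beside 0.361% of all PRMT5 peaks. This category was chosen after the regions were seen. Reads of such copies can also come from the mitochondrial genome itself, which in LNCaP carried 8 PRMT5 and 3 METTL3 entries of its own and in PC3 none. The part of mitochondrial reads in these 8 regions was not tested.

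Of the 8, 4 fell within 5.02 kb at chr1:629088-634111, over the copies MTND1P23, MTND2P28, MTCO1P12, MTCO2P12, MTATP8P1 and MTATP6P1 and inside the predicted coding gene LOC102724250. Their PRMT5 folds were 3.69, 9.53, 7.68 and 9.11 in order of position, and their METTL3 folds 1.48, 3.08, 1.97 and 1.62. The PRMT5 peak at chr1:633730-634111 had the smallest q of the LNCaP regions, with a −log10 q of 2253. Of the others, 3 lay at MTCYBP13 (chr17:22521318-22521532, folds 8.12 and 3.54), MTND6P4 in PCBD2 (chr5:134924106-134924645, 6.998 and 3.46) and MTRNR2L8 (chr11:10509174-10510051, 6.63 and 2.91). In each of the 8 the PRMT5 fold was above the METTL3 fold.

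MicroRNA genes lie in or within 1 kb of regions at 2 of these places. Their mature sequences are given here to show how near the overlap came to them, with the seed (bases 2 to 8) in capitals.
hsa-miR-12136: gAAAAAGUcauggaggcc
hsa-miR-4485-3p: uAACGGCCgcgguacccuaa
The hairpin of miR-12136 (chr1:632615-632685, minus strand) lay inside the PRMT5 peak of the region at chr1:632498-633563, but 635 bp from its METTL3 peak. It was 329 bp from the METTL3 peak of the neighbouring region at chr1:631884-632298. The mature miR-4485-3p (chr11:10508277-10508296, minus strand) lay outside the region at MTRNR2L8, 878 bp from its PRMT5 peak and 789 bp from its METTL3 peak. The seeds differ, and neither microRNA was covered by both peaks.

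Chromosome ends, within 1 Mb of the outermost gene or peak, held 17 of 73 LNCaP regions (23.3%, interval 14.2 to 34.7) and 13 of 151 PC3 regions (8.61%, 4.66 to 14.3). The shares for PRMT5 peaks without METTL3 were 15.9% (13.6 to 18.4) and 12.8% (11.2 to 14.6), and for METTL3 peaks without PRMT5 12% and 1.49% (1.23 to 1.80). The 2 highest PRMT5 folds among the PC3 regions were at the first bases of a chromosome's assembled sequence, 32.9 at chrX:10005-10168 and 28.65 at chr9:9970-10494. Their METTL3 folds were 4.40 and 5.84, and both also had a LNCaP PRMT5 peak, of fold 16.9 and 8.56. In LNCaP the region at chr16:19736-19901 had 14.4 and 2.89, and the region at chr1:248945695-248946410 had 9.49 and 1.46. Other regions at chromosome ends had the larger fold for METTL3, among them ZMYND11 and the LNCaP region near B4GALNT4.

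Some regions lay in gene-poor stretches of the chromosomes and had extreme q values at low folds. The repeat content of these places was not examined. In PC3 chr3:93470415-93470810, 503 kb from the anticoagulant gene PROS1, had a −log10 q of 22230 for METTL3 and 2530 for PRMT5, with a METTL3 fold of only 3.87. The PC3 region chr4:49711364-49711742 had the lowest PRMT5 fold of all 224, 1.17, with a METTL3 fold of 2.99 and a METTL3 −log10 q of 1031. On chromosome Y, 4 LNCaP regions fell within 24.7 kb at least 1371 kb from the nearest coding gene, USP9Y, with PRMT5 folds from 3.85 to 6.13 and METTL3 folds from 2.14 to 3.37. They were 4 of only 18 LNCaP PRMT5 peaks and 5 METTL3 peaks on that chromosome. In contrast, chromosome 19, rich in genes, held 79 LNCaP PRMT5 peaks and no METTL3 peak, and in PC3 3 of its 194 PRMT5 peaks were shared.

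The 2 summits usually lay close together. Their distance had a median of 44 bp in LNCaP (quartiles 14 and 132) and 91 bp in PC3 (32.5 and 182). The PRMT5 summit was inside the METTL3 peak in 67 of 73 LNCaP regions and 127 of 151 PC3 regions. The signed distance, METTL3 minus PRMT5 in genome coordinates, had a median of −2 bp in LNCaP and 2 bp in PC3. Single regions ran from −618 to 381 bp in LNCaP and from −772 to 731 bp in PC3. The distance was not oriented by gene strand, so it cannot show whether 1 summit lay downstream of the other. Summits were more than 300 bp apart in 5 and 19 regions. The rule asks only for 1 shared base, but overlap itself keeps summits within the widths of the peaks.

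**Figure D4:**
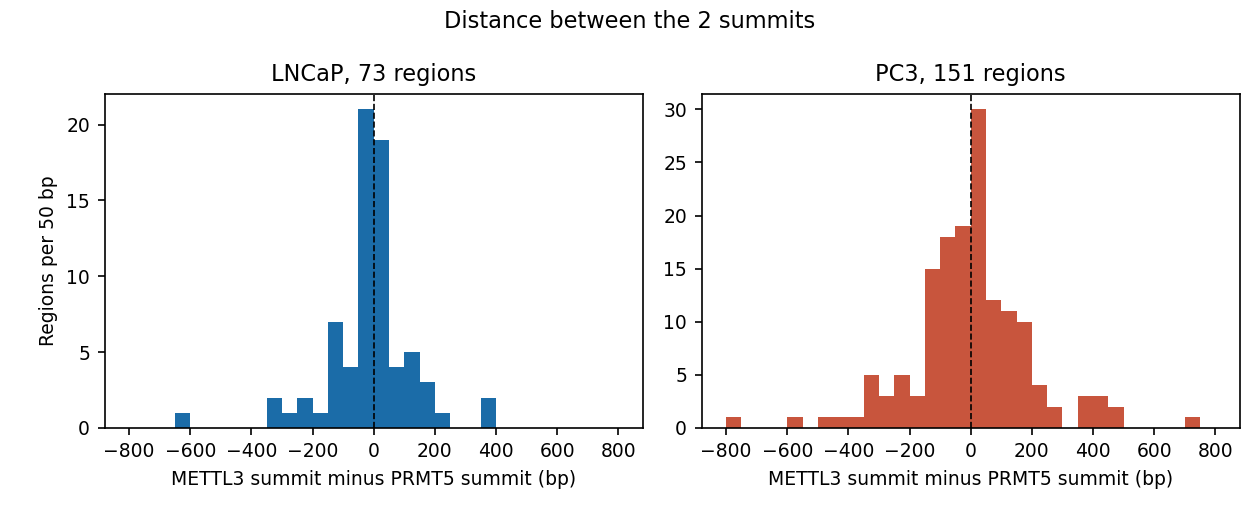
Position of the METTL3 summit relative to the PRMT5 summit (bp, horizontal axis) in bins of 50 bp, with the number of regions per bin (vertical axis), in LNCaP (left) and PC3 (right). The dashed line marks coinciding summits. Both distributions centre near 0, with medians of the absolute distance of 44 and 91 bp.

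Shared regions were wider than other peaks of their lists. The PRMT5 peak had a median width of 247 bp in LNCaP, against 179 bp without METTL3, and of 292 bp in PC3, against 228.5 bp. The METTL3 peak had a median width of 307 bp, against 230 bp without PRMT5, in LNCaP, and of 443 bp, against 292 bp, in PC3, where 292 bp was also the smallest width in the list. A wider peak meets another list more easily, so this difference is partly built into the rule. The shared stretch had a median of 212 bp in LNCaP and 235 bp in PC3, and 27 of 73 and 69 of 151 PRMT5 peaks lay wholly inside METTL3 peaks.

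At the edge of the rule the overlap was a matter of a few bases. The regions with the fewest shared bases included 1 bp in BICDL1 (PC3), 9 bp at chr20:16188172-16188384, 385 kb from KIF16B (LNCaP), 22 bp in the pseudogene DTX2P1 (PC3), and 83 bp both in ZNF385A and near PEX2 (PC3). Just outside, PRMT5 peaks missed a METTL3 peak by 17, 18, 67, 72 and 148 bp in LNCaP and by 9, 25, 26, 29 and 30 bp in PC3. The LNCaP misses included COL23A1, GRHL2 and HIVEP3 and those of PC3 ADK and MYRIP, with PRMT5 folds from 4.40 to 8.98 over the 10. GRHL2, a luminal epithelial transcription factor gene, thus had a region inside the rule (PRMT5 fold 3.98, METTL3 fold 4.27, 95 bp shared) and another peak just outside.

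The few regions near coding starts can all be named. In LNCaP the summit lay 1.02 kb from the start of ZMYND11, 0.468 kb from that of CARS2 and 1.155 kb from that of KISS1, the gene of the metastasis suppressor kisspeptin, where the PRMT5 fold was 4.55 and the METTL3 fold 7.34. It lay 2.014 kb from an end of the secreted mucin gene MUC5AC (5.96 and 6.18) and 0.011 kb from an end of LOC102723655 (14.4 and 2.89). In PC3 the summits lay 1.026 kb from TCP10L, 2.306 kb from an end of the inositol monophosphatase gene IMPA1, 2.565 kb from FAM240C, 2.611 kb from LOC124907874, 2.802 kb from LORICRIN, a gene of the cornified skin envelope, and 2.983 kb from an end of BICDL1. None of the PC3 summits came within 1 kb, whereas 17.0% of PC3 PRMT5 peaks without METTL3 did.

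Presence in the other line is a measure that the rule did not use, since the lists of the other line share neither library nor control with it. Of the LNCaP regions, 27 of 73 (37.0%, interval 26.0 to 49.1) overlapped a PC3 PRMT5 peak, against 30.4% of all LNCaP PRMT5 peaks and 29.9% (26.9 to 33.0) of those without METTL3. A PC3 METTL3 peak was overlapped by 11 of 73 (15.1%, 7.77 to 25.4), against 4.29% of all LNCaP PRMT5 peaks, 3.42% (2.33 to 4.82) of those without METTL3 and 5% (1.64 to 11.3) of METTL3 peaks without PRMT5. Of the PC3 regions, 27 of 151 (17.9%, 12.1 to 24.9) overlapped a LNCaP PRMT5 peak, against 17.7% of all PC3 PRMT5 peaks, and 11 of 151 (7.28%, 3.69 to 12.7) a LNCaP METTL3 peak, against 2.23% of all and 1.72% (1.13 to 2.51) of those without METTL3. With the rule as stated, the METTL3 intervals thus lay apart from those of PRMT5 peaks without METTL3, and the PRMT5 intervals did not. The LNCaP METTL3 interval did overlap that of METTL3 peaks without PRMT5. In PC3 5 of 7305 METTL3 peaks without PRMT5 (0.0684%, 0.0222 to 0.160) overlapped a LNCaP METTL3 peak. The regions were also wider than the other peaks, and the part of width in these shares was not tested.

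Because peaks at starts recur more between lines, the same shares were taken away from coding starts. There 36.8% (interval 25.4 to 49.3) of the LNCaP regions overlapped a PC3 PRMT5 peak, against 22.5% (19.2 to 26.1) of PRMT5 peaks without METTL3. For PC3 the values were 17.2% (11.5 to 24.4) and 11.9% (10.0 to 13.9). Without chromosome ends and mitochondrial gene copies, 17.3% (8.23 to 30.3) of 52 LNCaP regions overlapped a PC3 METTL3 peak, against 3.49% (2.30 to 5.08) of 744 PRMT5 peaks without METTL3. The METTL3 recurrence of LNCaP regions was therefore as large without those places. With a fold of at least 5 asked of both antibodies in the line, 11.8% (3.30 to 27.5) of 34 LNCaP regions overlapped a PC3 METTL3 peak, against 2.46% (1.49 to 3.82) of PRMT5 peaks without METTL3. Of 67 PC3 regions 2.99% (0.364 to 10.4) overlapped a LNCaP one, against 0.926% (0.463 to 1.65). These intervals overlapped in both lines. In PC3 they also overlapped when the PRMT5 summit had to lie inside the METTL3 peak (5.51%, 2.24 to 11.0, against 1.63%, 1.06 to 2.40). With that fold asked of the other line's list too, the LNCaP share was 1 of 34 (2.94%, 0.0744 to 15.3), against 1.43%. The PC3 share was 1 of 67 (1.49%, 0.0378 to 8.04), against 0.589%. Each of these shares rests on 1 region. The shares with a PRMT5 peak of the other line turned below those of PRMT5 peaks without METTL3 at that fold, 20.6% against 30.2% in LNCaP and 13.4% against 16.0% in PC3, and in PC3 also without chromosome ends (14.5% against 14.7%).

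A peak in all 4 lists was found at 9 places, which hold 9 LNCaP and 10 PC3 regions. SELP had LNCaP folds of 8.65 for PRMT5 and 10.5 for METTL3 and PC3 folds of 7.19 and 5.10. The region 353 kb from EDEM1 had 9.59 and 9.06 in LNCaP and 6.80 and 4.58 in PC3. B4GALNT4, 12.7 kb away, had 8.42 and 9.28 in LNCaP and 12.9 and 4.10 in PC3. The METTL3 fold was lower in PC3 than in LNCaP at each of these 3. The median fold of the whole METTL3 list was also lower in PC3, 5.10 against 6.22.

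The place 49.4 kb from an end of PTGIS, the prostacyclin synthase gene, had PRMT5 folds of 4.48 in LNCaP and 18.2 in PC3, with METTL3 folds of 4.11 and 5.05. SERINC2, a membrane protein gene of the serine incorporator family, had 3.77 and 2.97 in LNCaP and 3.48 and 3.39 in PC3. Of the 4 others, 1 was in DTX2P1, where 1 LNCaP region met 2 PC3 regions. The rest lay 340 kb from TSNARE1, 38.4 kb from the developmental transcription factor gene SOX8, and 136 kb from the Notch ligand gene DLL1, towards a chromosome end. The smallest fold over the 4 lists at these 4 places was 2.97, 2.58, 2.56 and 2.41 in that order. Apart from SELP and SERINC2 none of the 9 places lay inside a coding gene, and the distances to a coding start went from 8.67 kb at SELP to 353 kb.

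**Figure D5:**
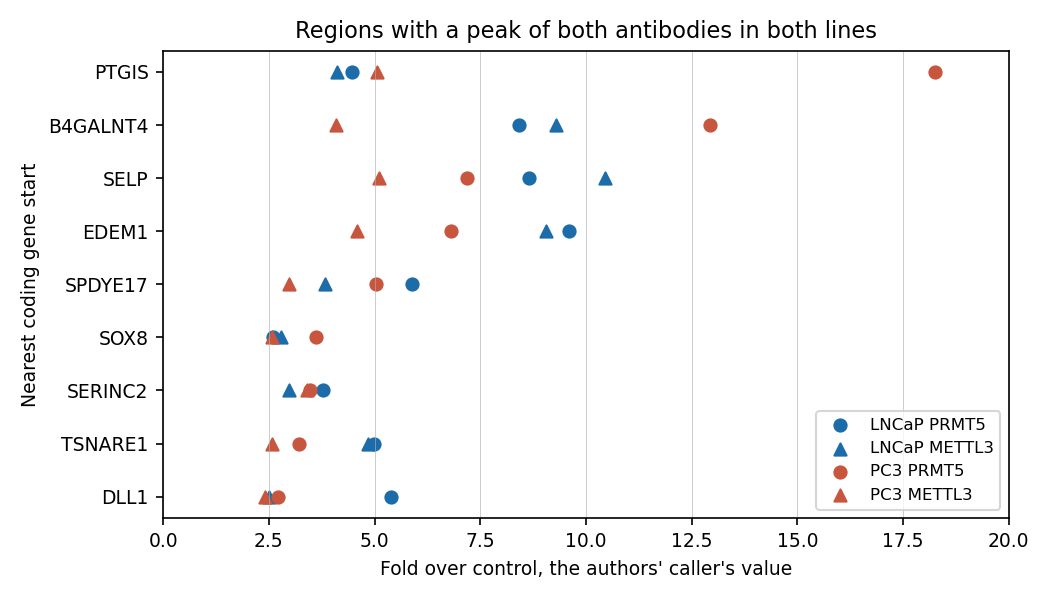
Fold over control (horizontal axis, the authors' caller's value) of PRMT5 (circles) and METTL3 (triangles) in LNCaP and PC3 at the 9 places with a peak in all 4 lists, each named by its nearest coding start. At SPDYE17, which stands for DTX2P1, the higher of the 2 PC3 PRMT5 folds is drawn. PTGIS has the widest spread, from 4.11 to 18.2.

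A further 20 LNCaP and 18 PC3 regions were in 3 lists. Most had the other line's PRMT5 peak as the third. They included the PC3 regions at chrX:10005-10168, chr9:9970-10494 and SCIRT, already given, and in LNCaP the region in the lncRNA gene LINC00922, 342 kb from the cadherin gene CDH11, with 6.71 for PRMT5 and 8.00 for METTL3 and a PC3 PRMT5 fold of 11.5. DKK1, a secreted Wnt inhibitor gene 11.97 kb from a LNCaP region with 9.13 and 6.52, had a PC3 PRMT5 fold of 4.27. In PC3 the gene of RBPJ, the DNA-binding factor of Notch signalling, had 7.95 and 7.13 with a LNCaP PRMT5 fold of 6.16. ULK1, an autophagy kinase gene, had 8.43 and 4.16 with 14.4 in LNCaP. 

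The other LNCaP regions with a PC3 PRMT5 peak lay 46.8 kb from ELFN1, 71.7 kb from RPAP3, 19.9 kb from DORIP1, at KISS1, in GRHL2 and beside the 4-list place nearest to TSNARE1. Their PC3 folds were 4.40, 6.35, 4.09, 4.59, 1.78 and 1.501 in that order. The set also held LOC102723655, regions 256 kb from LOC124909474 and 4.40 kb from LOC124905450, and a chromosome Y region. Towards chromosome ends it held regions 161 kb from FRG2B and 15.9 kb from PGBD2, with PC3 PRMT5 folds of 12.5 and 23.7 at these 2. At 4 of the regions with a mitochondrial gene copy the PC3 PRMT5 fold was between 1.16 and 1.75. Some of the other PC3 regions with a LNCaP PRMT5 peak are named here only by the nearest coding gene. These genes were STC1 (LNCaP fold 8.26), DLGAP1 (3.63), OR8U8 (4.78), OR11H1 (4.31), EMB (1.499) and CWH43 (1.21). The distance was 636 kb at DLGAP1, and a PC3 region beside that of OR11H1 lay 4314 kb from the gene. The rest lay on chromosome Y (6.58), at LOC124907874 (6.22) and FAM240C (3.01), and in PTPRN2, LRRC27 (2.48) and CLPTM1L (3.77). The other line's METTL3 peak was the third list in LNCaP at SMOC2 (6.71 and 6.41, PC3 METTL3 3.10) and at a second region of chromosome Y (PC3 METTL3 1.36). In PC3 this was so at SLC10A7 (4.50 and 8.26, LNCaP METTL3 6.06). PC3 had 6 PRMT5 and 3 METTL3 peaks on chromosome Y, and the origin of their reads was not tested.

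Within lists of genes of known function, the regions were few. A coding gene counted when a region lay inside it or within 3 kb, which was so for 0.145% of 20037 coding genes in LNCaP and 0.319% in PC3. None was found in either line at the listed 23 genes of the m6A machinery, 13 arginine methyltransferase and methylosome genes, 20 spliceosome Sm and SMN genes, 25 androgen-regulated and luminal prostate genes or 19 cadherin and protocadherin genes. The lists are selections from their families. The cadherin gene CDH22 held a PC3 region (5.68 and 4.77) and the luminal gene GRHL2 a LNCaP region, and neither was on these lists. With lists this short and shares this low, a count of 0 is close to the background. The 42 lysosomal genes differed from these in their PRMT5 peaks. PRMT5 peaks lay at 17 of them in LNCaP and 16 in PC3, against 3.08% and 4.59% of coding genes. The gene lists were chosen with earlier results of these data known, so this is a description. METTL3 peaks lay at 0 and 3 of the 42, against 0.389% and 11.6% of coding genes, and no region with both was found. For a list this short, those METTL3 counts and the absence of regions are near the background.

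The lists that did hold a region held 1 or 2. Chromatin regulators had L3MBTL4 and ZMYND11 in LNCaP and HDAC9, a histone deacetylase gene, in PC3 (7.33 and 5.51), of 25. Immediate early genes had CREM and IER2 in PC3, of 24, with IER2 at 5.92 and 4.88 and 4.09 kb from its start. Cation channel and transport genes had SLC10A7 and TRPM2 in PC3, of 23. Neuronal genes had SLC6A11 in LNCaP, of 19. Very long genes of common fragile sites had PTPRN2 in both lines and CTNNA3, an alpha-catenin gene, in PC3 (6.73 and 4.36), of 22. In PC3 METTL3 peaks lay in 18 of those 22 long genes and PRMT5 peaks in 3.

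Among markers of other lineages, SELP, a platelet and endothelial gene, was the only 1 of 12 immune and vascular genes with a region, in both lines, and none of 12 neuronal, liver and fibroblast genes had any. A peak on chromatin says nothing of the gene's expression, which was not measured here.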

How the data were processed

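Chromatin of LNCaP and PC3 cells was profiled by in-situ ChIP with pG-Tn5, and 4 peak lists were used. The submitters' processing notes name MACS2 2.1.0, Bowtie 1.1.1 and Trimmomatic 0.33 among their tools, and the build hg38. Each list compares 1 antibody library with its line's control library, as the deposited files' titles say. The authors deposited for each peak a score, a fold (a ratio to control), −log10 p and −log10 q values, and a summit. For duplicate removal, read shifting and caller settings the sources used here give nothing, and read depth is unknown.

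Only entries of chromosomes 1 to 22, X or Y were used. Overlaps of at least 1 bp, summit distances and positions were computed with Python 3.11.15, pandas 2.3.3 and numpy 2.4.6, and intervals with scipy 1.17.1. The overlap code was tested on simulated data. Genes, promoter windows and microRNA sequences came from RefSeq (GRCh38.p14, 59679 genes, 20037 coding, 15843 of these with a window). Peaks could not be assigned to exons, introns or UTRs, since the table has no transcripts. Where a region met several METTL3 peaks, the fold is that of the 1 sharing most bases.

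The members and the 13 gene lists (279 names, all matched) were chosen with earlier results of these data known. Named regions were, per line, the 12 with the largest smaller fold of the pair, those near a coding start, in 3 or 4 lists, in a listed gene, in a gene with 2 or more, or nearest the overlap limit; a few of these are not reported here. No test across samples was possible with 1 library per group. Alternatives covered overlap, fold, q, start window, gene type, contigs, chromosome ends and, chosen after seeing the data, mitochondrial gene copies and a fold limit in 1 line only.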

Additional observations from a re-analysis of the deposited data

Results flagged for a closer look

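Entries outside chromosomes 1 to 22, X and Y do not enter the results above, but they also held overlaps of both antibodies. In LNCaP 22 of 104 such PRMT5 entries overlapped a METTL3 entry, and in PC3 14 of 60 did. On the mitochondrial genome LNCaP had 8 PRMT5 and 3 METTL3 entries, and 2 of the PRMT5 entries overlapped METTL3.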

How the results depend on the processing

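No paired analysis was possible because each group has 1 library. Of 100 values recomputed for 14 results, 83 stayed within the reported interval or, for counts, within 1.5 times, and 17 did not. With a fold of at least 5 in all lists, the regions numbered 34 in LNCaP and 67 in PC3, the LNCaP summit distance had a median of 74 bp, the median PRMT5 fold was 7.12 and 7.26, the overlap with the other line's PRMT5 list was 14.7% of LNCaP and 8.96% of PC3 regions, and with its METTL3 list 2.94% and 1.49%. This setting also thins the other line's lists, and the METTL3 overlap then rested on 1 region in each line. With those whole, an alternative chosen after seeing the data, the PRMT5 overlap was 20.6% and 13.4% and the METTL3 overlap 11.8% and 2.99%. Asking that 50% of both peaks be covered left 86 PC3 regions. With genes of all types the share near a start was 37.0% in LNCaP and 11.3% in PC3, and inside a gene 57.5% and 58.9%, since more genes are counted. Within 1 kb of a coding start the PC3 share was 0%. Of 62 recomputed shares set against PRMT5 peaks without METTL3, 55 kept their direction and 7 turned, all of them for shares inside a coding gene in LNCaP or shares with a PRMT5 peak of the other line. A kept direction does not mean that the intervals lay apart. Unknown depth limits all counts: an overlap that was not called may lie under the caller's threshold.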
